A study of Mus musculus with 6 samples.

Results

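The genes described here mark neurons of the upper cortical layers, layers 2 to 4, and neurons that send axons across the corpus callosum. They were chosen by symbol, and all 9 (Cux1, Cux2, Pou3f1, Pou3f2, Pou3f3, Rorb, Mdga1, Inhba and Lmo4) were found among the 24391 gene symbols of the count table. RNA was sequenced from hemibrains of newborn mice at postnatal day 0, 3 with the genotype Celf2 -/- (null replicates 2, 4 and 10) and 3 with the genotype Celf2 +/- (heterozygous replicates 6, 7 and 11). CELF2 is an RNA-binding protein of the nucleus and cytoplasm. The comparison is null against heterozygous, since every animal carried at least 1 disrupted Celf2 allele and no wild type was analysed here. The replicate numbers are those of the labels, which name no litter, sex or batch, so p-values measure the spread between these samples.

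Upper-layer neurons are the last excitatory neurons born in the cortex. They arise largely through intermediate progenitors, migrate past the deep-layer neurons and form the connections within and between the hemispheres, while layer 4 receives the input of the thalamus. Cux1, Cux2 and the POU factors act in the nucleus to set this fate. At birth the last of these cells are still migrating. None of the 9 genes is confined to the cortex, and in a whole hemibrain fewer cells of a type and less RNA per cell cannot be told apart.

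CELF proteins bind GU-rich elements in RNA, often in 3′ untranslated regions, so the longest annotated 3′ UTR of each gene (GENCODE M21, build GRCm38) was searched on the transcribed strand for the 11-base element TGTTTGTTTGT. It was found in 4 of the 9 genes, and in 601 of 14437 tested genes with an annotated 3′ UTR (4.16%). These sites are written as DNA, with each full match of the element and any overlapping match in capitals. They are shown because they hold letters of the kind that CELF proteins are known to bind:
Pou3f2: ttgttttTGTTTGTTTGTTTGTtttaatga
Pou3f3: ttgttttgtTGTTTGTTTGTttgatgtttt
Rorb, first site: ttcgtttgtTGTTTGTTTGTttttgaaatg
Rorb, second site: ttctgggttTGTTTGTTTGTtttttctttt
Inhba: ggttgatgtTGTTTGTTTGTtttttatttt

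The windows lie at chr4:22483936-22483965 (minus strand) for Pou3f2, chr1:42701802-42701831 (plus strand) for Pou3f3, chr19:18937666-18937695 and chr19:18936236-18936265 (minus strand) for Rorb, and chr13:16031229-16031258 (plus strand) for Inhba, all in GRCm38. Long 3′ UTRs hold the element more often. Among tested genes whose 3′ UTR was within 20% of the length in question, 9.71% held it at the length of Pou3f2 (4014 bases), 11.97% at that of Pou3f3 (4537 bases), 21.4% at that of Rorb (7275 bases) and 11.5% at that of Inhba (4492 bases). Cux1, Cux2, Pou3f1, Mdga1 and Lmo4 did not hold these letters in the annotated window. A pure GT repeat, searched as TGTGTGTGTGT and found in 8.32% of tested genes, was present in Pou3f2 (a run of 41 bases) and Mdga1 (a run of 55 bases):
Pou3f2: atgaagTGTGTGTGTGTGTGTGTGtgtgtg
Mdga1: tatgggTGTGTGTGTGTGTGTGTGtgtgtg

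Among 3′ UTRs within 20% of the length, 20.8% held this repeat for Pou3f2 and 23.0% for Mdga1. Capitals mark the first 18 bases of each run, whose windows lie at chr4:22486481-22486510 and chr17:29828673-29828702 (minus strand, GRCm38). The 4 genes with the element had estimates of both signs. Their log2 fold changes, null over heterozygous, were 0.015 for Pou3f2, 0.34 for Pou3f3, -0.23 for Rorb and 0.26 for Inhba. The 95% intervals of Pou3f2, Rorb and Inhba included 0, so these signs cannot show whether the genes share a direction. A match of letters is not a measured binding site, and binding was not measured in these libraries.

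Library totals ranged from 28831997 to 33104472 counts in null samples and from 28854234 to 36531980 counts in heterozygous samples, and the 9 genes had between 117 and 7143 counts in each library, so all 9 passed the filter on low counts. Null replicate 2 stood apart, with 11.8% of its counts on the ribosomal RNA precursor Rn45s against 0.194% to 1.27% in the other 5 libraries. Celf2 itself was at 448, 390 and 331 CPM (counts scaled to library size with TMM factors) in null replicates 2, 4 and 10, against 459, 403 and 362 CPM in heterozygous replicates 6, 7 and 11 (log2 fold change -0.065, SE 0.12, exact two-sided permutation p = 0.7). The gene total does not show which exons were read, so it does not check the genotype labels, and every direction below rests on them. Genes of other brain regions also differed between libraries. Summed hindbrain and Hox genes reached 18.8 to 35.1 CPM in null samples and 42.5 to 225 CPM in heterozygous samples. The highest value was in heterozygous replicate 7. Every null sum lay below every heterozygous sum, so tissue content and genotype cannot be told apart as the source of this difference. Reads of the Y-linked gene Ddx3y were present in 1 of 3 null and 2 of 3 heterozygous libraries, and the others were listed at 0. The 10 genes of telencephalic identity summed to 1589 to 1656 CPM in null samples and 1242 to 1358 CPM in heterozygous samples.

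No upper-layer gene passed the test between the genotypes; the value that stood out most was a higher Pou3f3 in null hemibrains. In edgeR's quasi-likelihood test over 15925 genes, adjusted by Benjamini-Hochberg at 0.05, 0 of the 9 passed, where 1 gene of all those tested did (0.00628%; 0% were called higher), Proz, named after its value was seen. At an unadjusted p under 0.05 the count was 1 of 9, Pou3f3, against 7.06% of tested genes, 4.13% higher and 2.93% lower. DESeq2 called 0 of the 7 genes for which it gave an adjusted p, against 0.646% of genes, and limma-voom called 0 of 9. Each had 1 of the 9 at an unadjusted p under 0.05. Fold changes were above 0 for 7 of the 9 genes, against 49.7% of tested genes. Their median was 0.050 on the log2 scale, against -0.00093 over all tested genes, with a range of -0.23 to 0.34. With library size alone in place of TMM factors, 4 of the 9 were above 0 and the median was -0.036, where the median of all genes was -0.086. Without heterozygous replicate 11 the median was -0.0055, with 4 genes above 0, and without heterozygous replicate 6 it was 0.12.

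The groups did not overlap for 3 of the 9 genes, 2 higher in null (Pou3f3 and Lmo4) and 1 lower (Rorb), where 12.7% of all tested genes did not overlap, 6.21% with null higher and 6.47% with null lower. With upper-quartile factors or library size alone the count was 2, against 13.1% and 13.4% of tested genes. Pou3f3 and Rorb separated the groups under all 4 other scalings tried.

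**Figure D1:**
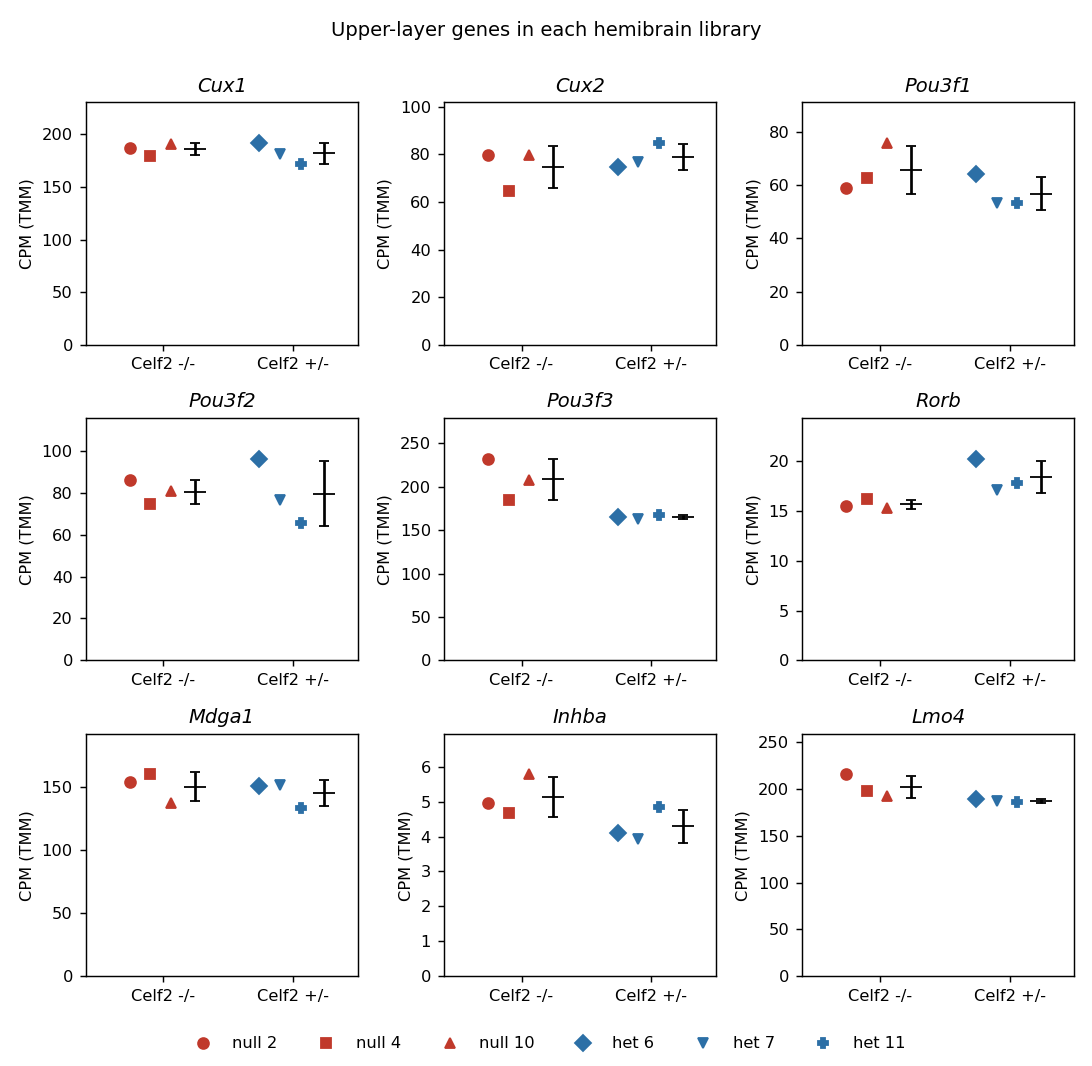
CPM (TMM-scaled, axes from 0) of each upper-layer gene in the 3 Celf2 -/- (red, left) and 3 Celf2 +/- (blue, right) libraries, with a marker for each library and bars for the mean and SD. Pou3f3 and Lmo4 lie higher and Rorb lies lower in every null library, and the other 6 genes overlap between genotypes.

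The highest fold change in the list was that of a POU-domain factor. Pou3f3 (chr1:42695768-42703176, plus strand, GRCm38) acts together with Pou3f2 in making and placing upper-layer neurons. It was at 232, 185 and 208 CPM in null replicates 2, 4 and 10, against 165, 163 and 167 CPM in heterozygous replicates 6, 7 and 11. Every null library lay above every heterozygous one, and the null libraries spread far more: the level averaged 209 ± 23.6 CPM in null and 165 ± 2.03 CPM in heterozygous samples (SD, n = 3 each). This is a log2 fold change of 0.34 with an SE of 0.082 and a 95% interval from 0.16 to 0.52 (edgeR adjusted p = 0.441), a ratio of 1.26 with an interval of 1.12 to 1.43. It ranked 62 by p among the 15925 genes, and 95.7% of tested genes had a lower fold change. Leaving out single libraries gave 0.26 (without null replicate 2) to 0.42 (without null replicate 4), and library size alone gave 0.25. The adjusted p ranged from 0.0837 (DESeq2) to 0.9999 (edgeR without heterozygous replicate 7) over the alternatives, so the difference did not pass in any of them.

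The telencephalic sum was also higher in every null library, and the hindbrain sum lower. Pou3f3 was at 0.33 when heterozygous replicate 7, with the most hindbrain RNA, was left out, and at 0.38 with a Y-linked covariate. The part of regional content in the level of Pou3f3 was not tested.

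Pou3f2, the partner of Pou3f3, was at 85.8, 74.5 and 80.9 CPM in null replicates 2, 4 and 10, against 96.2, 76.7 and 65.7 CPM in heterozygous replicates 6, 7 and 11. The null values lay inside the heterozygous range, which was the widest in proportion among the 9 genes (coefficient of variation 7.08% in null and 19.4% in heterozygous samples). The estimate was 0.015 on the log2 scale (SE 0.13) with a 95% interval from -0.27 to 0.30 (edgeR adjusted p = 0.992). Its sign turned in 5 of 17 alternatives, between -0.11 (without heterozygous replicate 11) and 0.18 (without heterozygous replicate 6), so no direction can be given.

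Pou3f1, a POU factor also known from myelinating Schwann cells, was at 58.9, 62.7 and 76.0 CPM in null replicates 2, 4 and 10, against 64.2, 53.2 and 53.3 CPM in heterozygous replicates 6, 7 and 11. Only null replicate 10 lay above all heterozygous libraries. The log2 fold change of 0.21 with an SE of 0.12 and a 95% interval from -0.046 to 0.47 (edgeR adjusted p = 0.779) was 0.096 without that library. Pou3f4, the fourth gene of the class and no member of the list, was at 7.21, 7.67 and 7.31 CPM in null samples and 6.24, 5.32 and 6.55 CPM in heterozygous samples (0.29, SE 0.15, edgeR adjusted p = 0.765).

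The make-up of the class was compared per length. Pou3f3 made up 62.0 ± 3.04% of the summed Pou3f1 to Pou3f4 signal in null and 59.3 ± 2.94% in heterozygous samples (SD, n = 3 each), with an exact permutation p of 0.6, two-sided, where 0.1 is the smallest that 3 against 3 allows. Pou3f2 made up 11.7 ± 0.231% in null and 13.9 ± 2.07% in heterozygous samples (SD, n = 3 each, exact permutation p = 0.3). With the annotated transcript lengths the share of Pou3f3 was 45.2% in null and 41.9% in heterozygous samples, and that of Pou3f2 was 23.1% in null and 26.5% in heterozygous samples. Of 8 tested POU genes outside the list, 5 had positive and 3 negative fold changes, with a median of 0.029 and 0 called; Pou4f1, a factor of sensory and brainstem neurons, was at -0.16.

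The CUX homeodomain factors, which shape dendrites and synapses of upper-layer neurons, did not separate the genotypes. Cux1 was at 187, 180 and 191 CPM in null replicates 2, 4 and 10, against 192, 181 and 172 CPM in heterozygous replicates 6, 7 and 11. Cux2, the more restricted of the pair, was at 79.9, 64.6 and 79.7 CPM in null samples, against 74.8, 76.7 and 84.9 CPM in heterozygous samples. The groups overlapped for both genes, and null replicate 4 held the lowest Cux2 level of the 6 libraries.

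Cux1 had a log2 fold change of 0.032 with an SE of 0.067 and a 95% interval from -0.11 to 0.18 (edgeR adjusted p = 0.959), or a ratio of 1.02 with an interval of 0.924 to 1.13. Scaling by library size alone gave -0.053, and leaving out heterozygous replicate 11 gave -0.0055. For Cux2 the value was -0.077 (SE 0.10) with a 95% interval from -0.30 to 0.15 (edgeR adjusted p = 0.936), and 0.018 without null replicate 4. The ratio of Cux2 to Cux1 per length was 1.29, 1.08 and 1.25 in null replicates 2, 4 and 10, against 1.17, 1.27 and 1.48 in heterozygous replicates 6, 7 and 11 (exact two-sided permutation p = 0.5). This order of the pair rests on the deposited lengths: with the longest coding transcripts of GENCODE M21, an alternative chosen after seeing the data, the ratio was 0.587 ± 0.0538 in null and 0.637 ± 0.0773 in heterozygous samples (SD, n = 3 each), so that Cux2 lay below Cux1. The Cux1 locus also encodes a Golgi protein, CASP, whose reads a gene total does not set apart.

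Rorb (chr19:18930605-19111196, minus strand, GRCm38), a nuclear receptor of layer 4 neurons that take up thalamic input, was the gene with the most negative fold change in the list. It was at 15.6, 16.2 and 15.3 CPM in null replicates 2, 4 and 10, against 20.3, 17.1 and 17.9 CPM in heterozygous replicates 6, 7 and 11. Every null library lay below every heterozygous one, and the null values were close together (15.7 ± 0.466 CPM in null and 18.4 ± 1.65 CPM in heterozygous samples, SD, n = 3 each). On the log2 scale the difference was -0.23 with an SE of 0.12 and a 95% interval from -0.49 to 0.025 (edgeR adjusted p = 0.745), with a range of -0.28 to -0.16 without single libraries and the smallest size without heterozygous replicate 6. Rorb is also transcribed in the thalamus and the midbrain. The midbrain genes summed to 9.22, 31.7 and 27.0 CPM in null samples and 45.1, 32.7 and 33.2 CPM in heterozygous samples, and their part in the level of Rorb was not tested. Among 7 thalamic genes the median log2 fold change was -0.12, with Calb2 at -0.24, the related receptor gene Rora at -0.20, Tcf7l2 at 0.32 and Prox1 at 0.44.

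**Figure D2:**
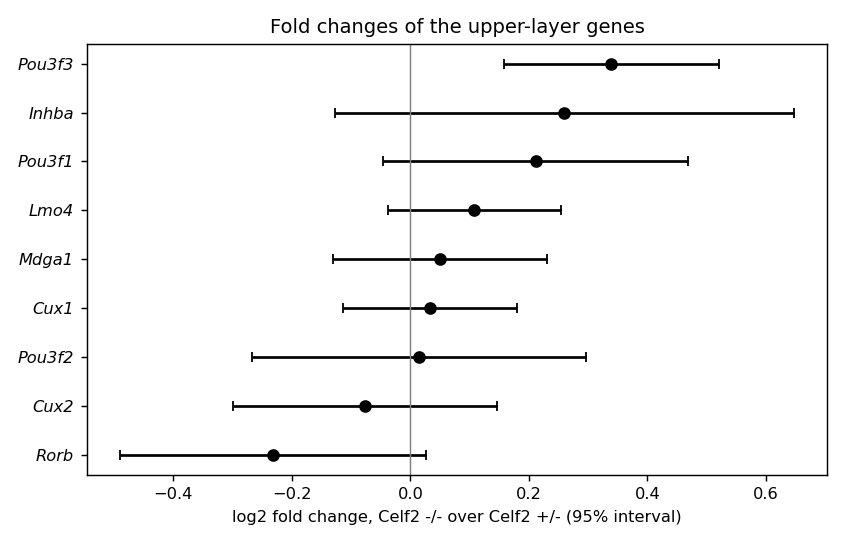
Log2 fold change (null over heterozygous, edgeR) of each upper-layer gene with its 95% interval, ordered from the highest at the top to the lowest. The interval of Pou3f3 (0.16 to 0.52) lies above 0, and the intervals of the other 8 genes include 0; these intervals are not adjusted for the 15925 genes tested.

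Lmo4, a LIM-only cofactor that marks callosal neurons and cortical areas, was at 216, 198 and 193 CPM in null replicates 2, 4 and 10, against 190, 187 and 186 CPM in heterozygous replicates 6, 7 and 11. The groups did not overlap, but the distance between the nearest libraries was small, and with upper-quartile factors or library size alone they overlapped. The estimated log2 fold change was 0.11 (SE 0.066) with a 95% interval from -0.038 to 0.25 (edgeR adjusted p = 0.814), and 0.018 with library size alone. Without null replicate 2, the library rich in Rn45s and the highest for Lmo4, it was 0.060. LMO4 binds the adaptor LDB1, whose gene was at 0.057, chosen after its values were seen. Of 5 other LMO and LDB genes 4 were positive (median 0.057) and 0 were called, with Lmo1 at 0.22 and Lmo2 at -0.18.

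Mdga1, a membrane-anchored adhesion protein that guides upper-layer migration and binds neuroligin, was at 153, 160 and 137 CPM in null replicates 2, 4 and 10, against 150, 151 and 133 CPM in heterozygous replicates 6, 7 and 11. The lowest library of each genotype was null replicate 10 and heterozygous replicate 11, and the groups overlapped. Its log2 fold change was 0.050 (SE 0.082) with a 95% interval from -0.13 to 0.23 (edgeR adjusted p = 0.954), and -0.0086 without heterozygous replicate 11. Its relative Mdga2 was at 0.12, and the neuroligin genes Nlgn1, Nlgn2 and Nlgn3 were at -0.017, 0.026 and 0.10, with 0 of these 4 called.

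Inhba encodes the subunit of activin A, a secreted signal of the TGF-beta family, and neurons induce it on stimulation. It was at 4.96, 4.68 and 5.78 CPM in null replicates 2, 4 and 10, against 4.09, 3.94 and 4.84 CPM in heterozygous replicates 6, 7 and 11. Null replicates 2 and 10 lay above all heterozygous libraries and null replicate 4 did not. The difference of 0.26 on the log2 scale (SE 0.18) had a 95% interval from -0.13 to 0.65 (edgeR adjusted p = 0.842), the widest interval in the list, from 117 to 170 counts per library. It was 0.17 without null replicate 10 and 0.36 without heterozygous replicate 11.

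Immediate-early genes, which neurons switch on within minutes of stimulation, differed far more between libraries. Fos was at 78.3, 235 and 4.86 CPM in null replicates 2, 4 and 10, against 8.53, 6.43 and 4.50 CPM in heterozygous replicates 6, 7 and 11. All 15 of the immediate-early list were positive, with a median of 1.26 and 0 called, and their sum was 202 to 1476 CPM in null and 180 to 252 CPM in heterozygous samples. Inhba was highest in null replicate 10, where Fos was near its heterozygous level, and it was lowest among null samples in replicate 4, where Fos peaked. The part of stimulation in the level of Inhba was not tested. Of 13 other activin pathway genes 8 were positive and 5 negative (median 0.071), and 0 were called. The receptor gene Acvr2b was at 0.39 and the signal mediator Smad4 at 0.28, each with an edgeR adjusted p of at least 0.57. These were the 2 of the 13 whose groups did not overlap, where 12.7% of all tested genes did not, 6.21% with null higher. Inha was at -0.15 and the decoy receptor gene Bambi at -0.091.

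Per length, the 9 genes spanned a wide range. In TPM (counts per length scaled to a fixed sum, computed with the deposited gene lengths) Lmo4 was highest, at 271 ± 7.09 in null and 262 ± 6.60 in heterozygous samples (SD, n = 3 each), a higher level than 96.2% of tested genes. Pou3f3 followed at 186 ± 12.1 TPM in null and 154 ± 6.60 TPM in heterozygous samples, and the ranges of these 2 genes over the 6 libraries did not meet. Pou3f1 (48.8 to 73.1 TPM over the 6 libraries) and Mdga1 (50.6 to 60.4 TPM) could not be ordered, with Pou3f1 higher in 3 of 6 libraries.

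Mdga1 lay above Cux2 in 6 of 6 libraries. Cux2 (36.2 to 49.2 TPM), Pou3f2 (31.0 to 42.4 TPM) and Cux1 (30.3 to 36.0 TPM) overlapped in neighbouring pairs. Inhba (7.35 to 10.9 TPM) and Rorb (4.11 to 5.93 TPM) were lowest, and Rorb was above 23.8% of tested genes. These levels depend on the deposited lengths, which differ from the longest coding transcripts of GENCODE M21: 1529 against 6390 bases for Inhba, 3064 against 7409 bases for Pou3f3, 5113 against 8784 bases for Cux2 and 15378 against 12862 bases for Cux1. With those transcript lengths Lmo4 and Pou3f3 were again first and second, Mdga1 lay above Pou3f1 on average, Cux2 was seventh, below Pou3f2 and Cux1, and Rorb lay above Inhba.

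**Figure D3:**
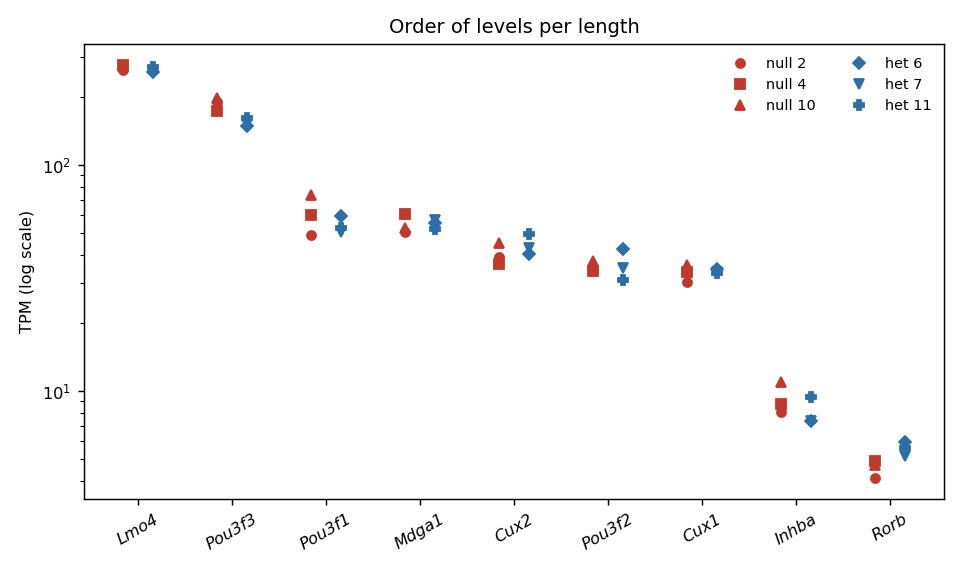
TPM on a log axis of the upper-layer genes in each library, from the highest gene at the left to the lowest at the right, with Celf2 -/- libraries in red left of Celf2 +/- libraries in blue. Lmo4 (256 to 277 TPM) and Pou3f3 (149 to 197 TPM) stand above the others, and Inhba and Rorb stand below.

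Other genes of upper-layer and callosal neurons formed a second list. All 19 were tested, 17 with positive and 2 with negative fold changes. Their median was 0.070 on the log2 scale, and 0 were called. At an unadjusted p under 0.05 there were 4 higher, against 4.13% of tested genes. Among them was Lhx2, a LIM-homeodomain factor of cortical progenitors and upper-layer neurons, at 125, 89.5 and 103 CPM in null replicates 2, 4 and 10, against 90.2, 74.5 and 85.1 CPM in heterozygous replicates 6, 7 and 11 (0.35, SE 0.12, edgeR adjusted p = 0.622). Its groups overlapped, with null replicate 4 below heterozygous replicate 6. Bhlhe22, chosen after its values were seen, was at 136, 138 and 145 CPM in null samples, against 108, 115 and 125 CPM in heterozygous samples, without overlap (0.27, edgeR adjusted p = 0.521). It was 1 of 2 genes of the 19 without overlap and with null higher, against 6.21% of tested genes. Unc5d, a netrin receptor gene of migrating upper-layer neurons, was at 0.0016, and Gfra2 at -0.070.

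Deep-layer and telencephalic genes had larger medians than the upper-layer genes, a difference that was not tested. The median was 0.16 for 17 deep-layer and subplate genes (12 positive, 5 negative) and 0.27 for 10 telencephalic genes (9 positive, 1 negative), with 0 called in either list. Tbr1 (0.57) and Fezf2 (0.54), factors of corticofugal neurons, were the most positive of the deep-layer list and Pcp4 (-0.36) was its lowest with at least 50 counts; Neurod6 led the telencephalic list at 0.53 (edgeR adjusted p = 0.062). The summed CPM of the 9 genes was 0.624, 0.595 and 0.619 of the telencephalic sum in null replicates 2, 4 and 10, against 0.704, 0.706 and 0.713 in heterozygous replicates 6, 7 and 11. The same sum relative to the deep-layer list was 0.841, 0.832 and 0.878 in null samples, against 0.893, 0.883 and 0.866 in heterozygous samples. Relative to the other upper-layer and callosal genes it was 0.638, 0.562 and 0.585 in null samples, against 0.622, 0.582 and 0.569 in heterozygous samples. Only the ratio to the telencephalic sum separated the genotypes, and that sum was itself higher in every null library. So were the sums of the other lists compared here. The deep-layer sum was 1124 to 1230 CPM in null and 1022 to 1071 CPM in heterozygous samples. The sum of the other upper-layer and callosal genes was 1620 to 1688 CPM in null and 1538 to 1563 CPM in heterozygous samples. These ratios and sums were not tested. The summed CPM of the 9 genes was 989 ± 44.2 in null and 917 ± 36.5 in heterozygous samples (SD, n = 3 each).

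**Figure D4:**
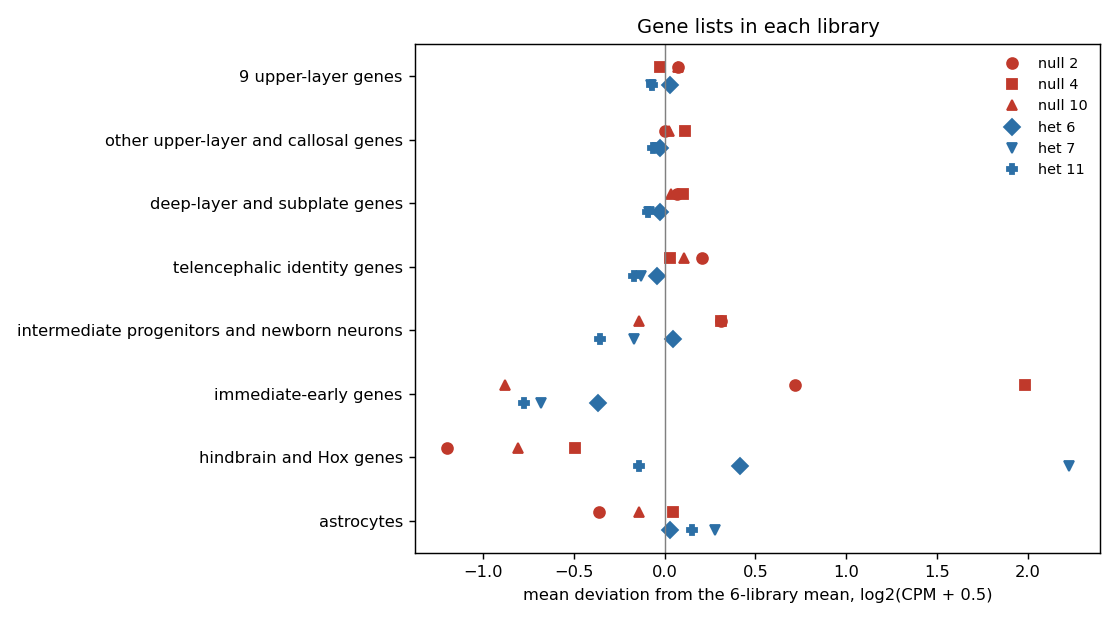
Mean deviation of each gene list from its own mean over the 6 libraries, in log2(CPM + 0.5), with Celf2 -/- libraries in red above Celf2 +/- libraries in blue. The 9 upper-layer genes stay between -0.075 and 0.071, whereas the immediate-early list spans -0.88 to 1.98 and the hindbrain and Hox list -1.20 to 2.23.

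The source of upper-layer neurons was described by 9 tested genes of intermediate progenitors and newborn neurons, of which 7 were positive and 2 negative with a median of 0.33 and 0 called. Btg2, which is also an early response gene, was at 1.52, Neurog2, which drives neurogenesis, at 0.67, and Rnd2, a migration gene, at -0.29. Eomes, named after its values were seen, was at 29.3, 24.8 and 24.1 CPM in null samples, against 22.0, 17.1 and 12.6 CPM in heterozygous samples. Its log2 fold change was 0.59 (SE 0.18, edgeR adjusted p = 0.531). Its groups did not overlap, as was so for 12.7% of all tested genes. The list deviated from its mean by 0.31, 0.31 and -0.14 in null replicates 2, 4 and 10, against 0.047, -0.17 and -0.36 in heterozygous replicates 6, 7 and 11. The list mean in null replicate 10 was under that in heterozygous replicate 6, which did not hold for Eomes. Btg2, part of this mean, was at 23.2, 52.1 and 9.45 CPM in null samples, against 11.9, 7.41 and 10.2 CPM in heterozygous samples. Radial glia genes had 6 positive and 4 negative values (median 0.094). Among other cell types, all 10 astrocyte genes were negative (median -0.27), and their sum was 1451 to 1934 CPM in null and 2055 to 2345 CPM in heterozygous samples. No gene of these lists was at 0 in every library. Further, 9 of 10 striatal genes were negative (-0.094) and 8 of 10 interneuron genes were positive (0.16), with 0 called in these lists; their part in the values of the 9 genes was not tested.

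The genes did not move as a block from library to library. The root mean square difference of mean-centred log2 levels over the 6 libraries was smallest between Cux1 and Lmo4 (0.077). Both varied little themselves, with root mean square deviations of 0.055 (Cux1) and 0.073 (Lmo4), so this closeness does not show a shared profile. For Pou3f3, whose own deviation was 0.19, the closest of the other 8 was Lmo4 (0.13). Among 13020 genes with at least 50 counts on average, the profiles nearest to Pou3f3 were those of Tspan18 (0.055), Eif4ebp2 (0.055) and Bcl11a (0.060), and those nearest to Rorb were Lenep (0.036), Coch (0.044) and Sfxn5 (0.045). Nhlrc1 (0.051) and the activin subunit gene Inhbb (0.068) came nearest to Pou3f1, and Rbpj (0.028) and Barhl2 (0.029) to Inhba. These matches are a description over 6 libraries, with no test.

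**Figure D5:**
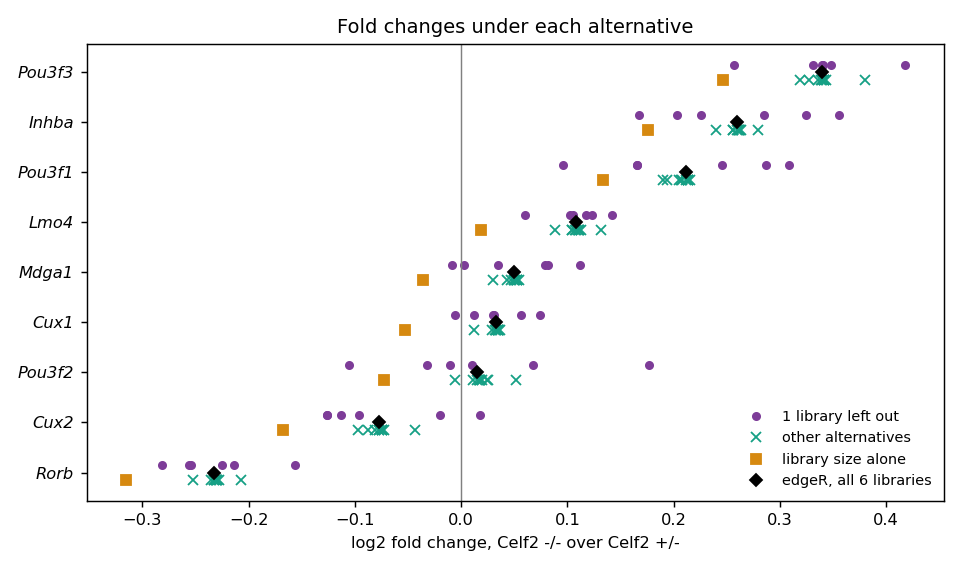
Log2 fold change of each upper-layer gene under each alternative: the edgeR fit on all 6 libraries (diamonds), fits without 1 library (circles), library size alone (squares) and the other alternatives (crosses). Pou3f3 stays between 0.25 and 0.42 and Rorb between -0.32 and -0.16, Inhba, Pou3f1 and Lmo4 stay above 0, and the other 4 genes cross 0.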

How the data were processed

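The authors deposited whole-number read counts per gene symbol, 1 column for each of the 6 libraries, with a length for each gene. Per the labels' protocols, TRIzol extraction was followed by a stranded low-input kit for total RNA, whereas the series' text names poly(A) RNA; this conflict was not resolved. The submitters' processing notes list mm9 and hg19 as builds and, as tools without roles, STAR, cutadapt, CASAVA, Picard, MACS2 and bedtools. Which tool and annotation produced the counts, and whether strand was used, is not given in the sources used here. Antisense transcripts annotated at Cux1, Cux2, Pou3f1, Mdga1 and Inhba may share reads with these genes. Transcripts annotated on the same strand at Cux1, Pou3f3 and Lmo4 may do so as well, whether or not strand was used.

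Genes were kept by filterByExpr (15925 of 24391). The quasi-likelihood test came from edgeR 4.0.16 (R 4.3.3); it used TMM factors and robust dispersion (biological coefficient of variation 13.9%), and p-values were adjusted by Benjamini-Hochberg. CPM use TMM-scaled library sizes, and a standard error is the fold change over the square root of F. Every pair of libraries differed by more than sampling noise (smallest chi-square per gene 13.4). Alternatives were other scaling factors and low-count filters, DESeq2 1.42.0, limma-voom (limma 3.58.1), non-robust dispersion, a Y-linked covariate, a term for replicates 10 and 11, removal of 3 structural RNAs and leaving out each library. On counts simulated from the mean levels and totals of these libraries (15822 genes) edgeR recovered 36 of 100 genes changed 1.5-fold. It recovered 92 of 100 changed 2-fold, with 5 false calls. The simulation gave every gene the same dispersion and held no outlying library, so these rates may not hold for the real libraries. Sequences and coordinates come from GENCODE M21 on GRCm38, not from the build of the notes. Named were the 9 genes, Celf2, the 2 highest and 2 lowest fold changes (mean of at least 50 counts) of each further list where described, and the nearest profiles. The genes, lists and motifs were chosen with earlier results of these data known. Some genes that this rule names are left out of the text.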

Additional observations from a re-analysis of the deposited data

How the results depend on the processing

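No alternative called any of the 9 genes, and Pou3f3, Pou3f1, Inhba, Lmo4 and Rorb kept their direction in all 17. The count of all genes called was 1 in the edgeR fit, 0 with DESeq2 size factors, a CPM minimum, limma-voom, non-robust dispersion or structural RNAs removed, 2 with upper-quartile factors or library size alone, 3 without a low-count filter, 57 with DESeq2, 10 with the Y-linked covariate and 11 with a term for replicates 10 and 11. Leaving out single libraries gave 0 to 4, the 4 without null replicate 10. At an unadjusted p under 0.05 edgeR counted 1124 genes, 1762 with the same term and 599 without heterozygous replicate 7; among the 9 genes it counted 2 with library size alone, without null replicate 2 and without heterozygous replicate 6. The median log2 fold change of the 9 was 0.050, -0.036 with library size alone and -0.0055 to 0.12 without single libraries; with library size alone or without heterozygous replicate 11, 4 of the 9 were positive. With library size alone the sign turned for Cux1 (-0.053), Mdga1 (-0.036) and Pou3f2 (-0.072), and with upper-quartile factors for Pou3f2 (-0.0061). Without single libraries the values ran from -0.0055 to 0.075 for Cux1, -0.13 to 0.018 for Cux2, -0.0086 to 0.11 for Mdga1, -0.11 to 0.18 for Pou3f2 and -0.18 to 0.039 for Celf2. The cause of these turns was not tested. With annotated transcript lengths, chosen after seeing the data, mean shares of the Pou3f1 to Pou3f4 signal in null samples were 27.6% (Pou3f1), 23.1% (Pou3f2), 45.2% (Pou3f3) and 4.08% (Pou3f4), and those in heterozygous samples 27.7%, 26.5%, 41.9% and 3.88% for the same genes. The ratio of Cux2 to Cux1 was 0.587 in null and 0.637 in heterozygous samples, where the deposited lengths gave 1.21 in null and 1.31 in heterozygous samples. No paired analysis was possible because the groups share no replicate number. In data simulated with the same dispersion for every gene, 36 of 100 genes changed 1.5-fold were recovered. Smaller changes, such as the ratio of 1.26 for Pou3f3, were not simulated.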
